A study of Homo sapiens with 36 samples.

Results

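The effect of removing serine and glycine on gene expression was examined in A2780 cells treated with carboplatin. A2780 is an established line from a human ovarian cancer, and its parental, platinum-sensitive form is named wt here. The comparison set the 3 libraries of cells kept without serine and glycine and given carboplatin (wt -SG carbo, libraries 10 to 12) against the 3 libraries of cells given carboplatin in complete medium (wt carbo, libraries 4 to 6). These 6 libraries of 36 in the series were assigned by their labels, without use of their expression values. The cells of both groups were the parental line, and both received carboplatin, whose dose the labels give as 6 M, without a prefix. The deprived medium was an RPMI made in the laboratory with dialyzed serum, and the labels do not say whether the complete medium of the sequenced cells was that homemade RPMI or the commercial one used for maintenance. The 2 media may therefore differ in more than serine and glycine, which cannot be told apart here. The 3 libraries of a group are technical replicates by the study's legends, so that a p-value covers the spread between libraries and not between independent cultures. The same media without carboplatin (wt and wt -SG, 6 more libraries) gave the response of untreated cells for comparison.

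Serine is taken up from the medium or made from the glycolytic intermediate 3-phosphoglycerate by PHGDH, PSAT1 and PSPH in turn. It supplies glycine, folate-bound carbon units for nucleotides, glutathione and lipids. When amino acids run short, the kinase GCN2 favours translation of the transcription factor ATF4, which raises the mRNA of amino acid synthesis enzymes, transporters and tRNA synthetases. Carboplatin forms DNA crosslinks and holds proliferating cells in the cell cycle.

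Library 11 stood apart from the other libraries of its group, so the counts and the main genes are given with and without it. Relative to the mean of wt carbo, its expression fell with summed exon length, with a Spearman correlation of -0.576 across 9308 genes, against -0.0334 in library 10 and -0.112 in library 12. Its median log2 difference from wt carbo was 0.26 over the 270 genes with under 1500 exonic bases and -0.21 over the 2682 genes with 8000 or more. The mean chi-square of gene counts was 25.6 between libraries 10 and 11, 24.6 between 11 and 12, and 1.2 between 10 and 12, and lay from 1.36 to 1.68 between wt carbo libraries. Mitochondrially encoded genes took 6.20% of the counts of library 11, against 3.56% and 3.53% in libraries 10 and 12 and 4.65% to 5.23% in wt carbo. Total counts on genes were 14732873 to 16381042 in wt -SG carbo and 16979349 to 18987036 in wt carbo. The untreated libraries used for comparison differed too. In wt -SG the mean chi-square was 13.5 between libraries 7 and 8, 7 between 8 and 9 and 3.55 between 7 and 9. In wt it lay from 1.7 to 4.93. Library 8 had a mitochondrial share of 3.75%, against 6.31% and 5.24% in libraries 7 and 9.

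**Figure D1:**
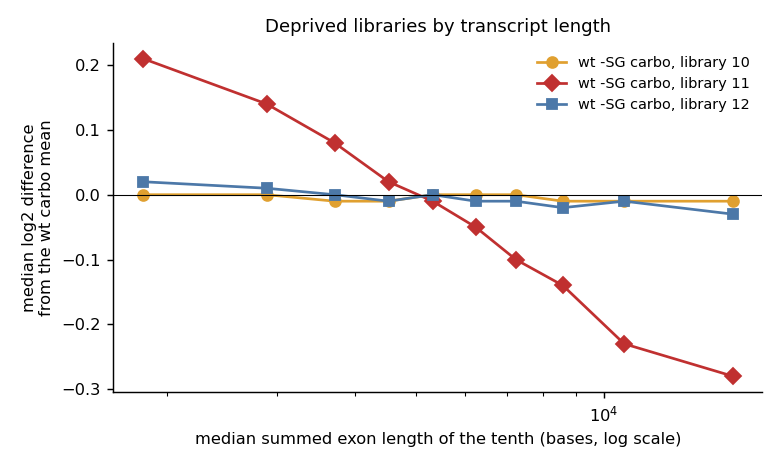
Median log2 difference of each wt -SG carbo library from the mean of the 3 wt carbo libraries, over 10 groups of genes ordered by summed exon length (x axis, median bases of each group, log scale). Libraries 10 and 12 stay between -0.03 and 0.02 in every group, while library 11 runs from 0.21 for the shortest genes to -0.28 for the longest.

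The immune and endothelial markers were near 0. The 8 immune markers summed to 0.269 to 0.664 CPM (counts scaled to sequencing depth with TMM factors over the 12 wt libraries) in wt carbo and 0.493 to 0.691 CPM in wt -SG carbo, with CD3E at 0 in all 6 libraries. The 5 matched endothelial markers summed to 0.322 to 0.583 CPM in wt carbo and 0.459 to 0.899 CPM in wt -SG carbo. Among the 10 epithelial and ovarian markers KRT7 was at 0 in both groups, and PAX8, WT1, MUC16 and CDH1 averaged under 1 CPM, while the mesenchymal gene VIM was at 3619, 3694 and 3765 CPM in wt carbo and 3884, 4628 and 3894 CPM in wt -SG carbo. The keratins KRT8, KRT18 and KRT19 averaged 5.54, 5.03 and 4.77 CPM in wt carbo and 6.06, 6.9 and 7.49 CPM in wt -SG carbo, and EPCAM 0.947 and 1.65 CPM. The 8 fibroblast markers, collagen genes above all, summed to 2963 to 2994 CPM in wt carbo and 2504 to 3031 CPM in wt -SG carbo, and none of the 7 tested was called with library 11. COL1A1 was called higher without it and also with the length trend removed, and COL3A1 was called lower without it.

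Few genes were called between deprived and complete medium under carboplatin. Of 14454 genes tested with edgeR's quasi-likelihood test, 104 (0.720%) had a Benjamini-Hochberg adjusted p-value under 0.05 and are named called here, 90 higher (0.623%) and 14 lower (0.0969%) in wt -SG carbo. Secreted and cell surface genes such as SERPINA1, MMP9, ICAM1 and ITGAX were among the higher ones, and the actin-associated genes TAGLN, ACTA2 and CNN1 among the lower ones. A log2 fold change of 1 or more in size was reached by 3 called genes, 1 higher and 2 lower. Without library 11, 1583 of 14715 genes (10.8%) were called, 914 higher (6.21%) and 669 lower (4.55%), and the common dispersion fell from 0.00508 to 0.00023. The calls without library 11 had a median absolute log2 fold change of 0.175, against 0.508 over the calls with it. Larger changes were called more often too. Those of 1 or more in size numbered 24, against 3 with library 11, and those of 0.5 or more 171, against 55. All 104 genes were called in the same direction without library 11, where they made up 6.57% of the calls. While library 11 stayed in, the number called moved with single libraries, to 18, 10 and 0 when wt carbo libraries 4, 5 and 6 were left out and 57 and 34 without libraries 10 and 12. In the edgeR fit with 0 calls 1143 genes had an unadjusted p-value under 0.05, and DESeq2 on all 6 libraries called 141 genes. With library 11 left out together with each wt carbo library in turn, 1382, 1348 and 1061 genes were called, among them in every case all 104.

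The genes of serine synthesis were not higher in deprived cells under carboplatin. PHGDH (chromosome 1, 120191034 to 120286841 in GRCh37), which catalyses the first step of the pathway, was at 174, 180 and 173 CPM in wt carbo and 153, 171 and 161 CPM in wt -SG carbo. The deprived libraries lay under the others without overlap, by a narrow margin in library 11. The wt -SG carbo/wt carbo log2 fold change of PHGDH was -0.12 (SE 0.055, adjusted p = 0.394, edgeR), and -0.16 (SE 0.0294, adjusted p = 8.53e-06) without library 11. PSAT1 (chromosome 9, 80912041 to 80945009), the transaminase of the second step, was at 455, 444 and 447 CPM in wt carbo and 405, 433 and 414 CPM in wt -SG carbo. It showed the same order, with a log2 fold change of -0.10 (SE 0.0479, adjusted p = 0.392, edgeR) and -0.13 (SE 0.0212, adjusted p = 2.52e-07) without library 11. PSPH (chromosome 7, 56078744 to 56119297), the phosphatase that releases serine, was at 48.4, 45.8 and 44.5 CPM in wt carbo and 43.9, 43.9 and 46.7 CPM in wt -SG carbo, and the groups overlapped. Its log2 fold change was -0.04 (SE 0.0583, adjusted p = 0.759, edgeR) and -0.03 without library 11. Between the fits with and without library 11, PHGDH and PSAT1 were thus called lower only without it, and PSPH in neither. With library 11 kept and the length trend removed, PHGDH was at -0.05 (adjusted p = 0.781, edgeR) and PSAT1 at -0.17 (adjusted p = 0.067, edgeR). PSPH was then at -0.10 (adjusted p = 0.49, edgeR), and none of these enzymes was called.

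In cells without carboplatin the enzymes were higher in deprived medium. PHGDH was at 458, 484 and 460 CPM in wt and 520, 528 and 526 CPM in wt -SG, and all 3 enzymes were called higher in wt -SG, with log2 fold changes of 0.17 for PHGDH, 0.25 for PSAT1 and 0.11 for PSPH. The test of the difference between the responses is the interaction (wt -SG carbo over wt carbo, less wt -SG over wt), fitted on the 12 wt libraries. It was -0.29 (SE 0.0603, adjusted p = 0.00211, edgeR) for PHGDH and -0.35 (SE 0.0487, adjusted p = 6.34e-05, edgeR) for PSAT1, and -0.32 and -0.37 without library 11. The interaction of PHGDH was not called by edgeR with the length trend removed (-0.18, adjusted p = 0.139) or in a fit over the 36 libraries (-0.28, adjusted p = 0.338). For PSPH the interaction was -0.15 (SE 0.0647, adjusted p = 0.0944, edgeR) and was not called, but it was with the length trend removed (-0.26, adjusted p = 0.00907).

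ATF4 and its targets were compared next. The motif TGATGNAA, the core that ATF4 and C/EBP proteins share, was searched on both strands of the 250 bases before each start in the RefSeq promoter table (GRCh38.p14). It occurred in 1061 of 27305 genes with an entry (3.89%), in 5 of 18 ATF4 targets with an entry and in 3 of 12 amino acid stress regulators. It also occurred in 2 of 13 amino acid transporters, and in 0 of the 2 serine synthesis enzymes with an entry. A match is a description of letters, and the targets were listed from knowledge of ATF4. Both printed windows hold 1 match, in capitals, and show a pair of genes of this response that differed in direction.
ASNS promoter, minus strand, chr7:97872409-97872658: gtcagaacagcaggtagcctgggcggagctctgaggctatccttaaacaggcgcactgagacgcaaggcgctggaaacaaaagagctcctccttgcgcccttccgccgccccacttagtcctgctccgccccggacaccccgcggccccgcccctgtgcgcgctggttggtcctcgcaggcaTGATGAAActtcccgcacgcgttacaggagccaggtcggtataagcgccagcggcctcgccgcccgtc
ATF3 promoter, plus strand, chr1:212565157-212565406: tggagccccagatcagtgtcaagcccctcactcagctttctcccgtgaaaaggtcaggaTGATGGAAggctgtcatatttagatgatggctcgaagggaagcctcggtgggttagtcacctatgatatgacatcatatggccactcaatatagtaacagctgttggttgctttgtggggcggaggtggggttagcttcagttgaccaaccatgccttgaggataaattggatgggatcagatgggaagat

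ASNS, which makes asparagine, was at 345, 343 and 335 CPM in wt and 480, 472 and 472 CPM in wt -SG. Under carboplatin it was at 143, 142 and 148 CPM in complete medium and 129, 140 and 135 CPM without serine and glycine. Deprivation thus went with a higher level in untreated cells (log2 fold change 0.48) and with a value of -0.10 (SE 0.0517, adjusted p = 0.453, edgeR) under carboplatin, or -0.13 (adjusted p = 0.00183) without library 11. ATF3, a stress-induced repressor and activator, was at 20.2, 21.2 and 22.5 CPM in wt, 17.6, 16.6 and 15.3 CPM in wt -SG, 80.3, 75.3 and 72.2 CPM in wt carbo and 88.9, 98.3 and 92.8 CPM in wt -SG carbo. Its log2 fold change was -0.36 without carboplatin and 0.30 (SE 0.0611, adjusted p = 0.0749, edgeR) with it, the latter called at 0.26 without library 11. The interactions were -0.58 (SE 0.0555, adjusted p = 2.00e-06, edgeR) for ASNS and 0.66 (SE 0.092, adjusted p = 6.21e-05, edgeR) for ATF3.

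Of the 22 tested ATF4 targets, 1 was called higher and 0 lower under carboplatin, with a median log2 fold change of 0.01, against -0.0022 over all genes tested. Without carboplatin 19 of 22 were called higher and 1 lower, with a median of 0.46, in a comparison that called 49.2% of 14284 genes (24.1% higher and 25.1% lower). Without library 11, 4 targets were called higher under carboplatin (DDIT4, INHBE, VEGFA and MAP1LC3B) and 2 lower (ASNS and HERPUD1), again with a median of 0.01. By the interaction, which called 4219 of 15247 genes (27.7%), 2225 above 0 (14.6%) and 1994 below 0 (13.1%), 17 of 23 tested targets had a lower value and 1 a higher one. INHBE, a secreted subunit of the inhibin and activin family, was the target called in both settings with all libraries. It was at 35, 32 and 31.3 CPM in wt carbo and 46.3, 47.3 and 47.3 CPM in wt -SG carbo, a log2 fold change of 0.52 (SE 0.0613, adjusted p = 0.00668, edgeR). In untreated cells INHBE went from 29.1, 27.3 and 30.8 CPM to 98.4, 95.2 and 93.3 CPM, a log2 fold change of 1.72, and the interaction was -1.20 (SE 0.0785, adjusted p = 3.39e-08, edgeR).

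Among the regulators, ATF4 mRNA itself was at 350, 362 and 358 CPM in wt carbo and 326, 369 and 338 CPM in wt -SG carbo. The groups overlapped through library 11, and the log2 fold change was -0.05 (SE 0.0566, adjusted p = 0.715, edgeR) with it and -0.10 (adjusted p = 3.52e-04) without it. ATF4 is controlled mainly by translation, which these libraries do not measure. ATF5, a related factor, stood at 134, 140 and 137 CPM in wt -SG against 37.8, 37.1 and 40.2 CPM in wt, but at 45.5, 47.7 and 46.1 CPM in wt -SG carbo against 41.0, 38.8 and 41.6 CPM in wt carbo. The interaction of ATF5 was -1.64 (SE 0.0678, adjusted p = 1.59e-10, edgeR). TRIB3, a pseudokinase that dampens ATF4, was at 80.5, 79.2 and 74.8 CPM in wt and 140, 141 and 149 CPM in wt -SG, and at 48.0, 50.2 and 50.9 CPM in wt carbo and 51.6, 53.1 and 48.9 CPM in wt -SG carbo. Its interaction was -0.83 (SE 0.0682, adjusted p = 4.59e-07, edgeR), and that of NUPR1, a stress-induced chromatin protein, -1.24. Of the 15 regulators tested, 0 were called under carboplatin with library 11 and 6 without it (3 higher, 3 lower), against 9 higher and 5 lower in untreated cells.

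**Figure D2:**
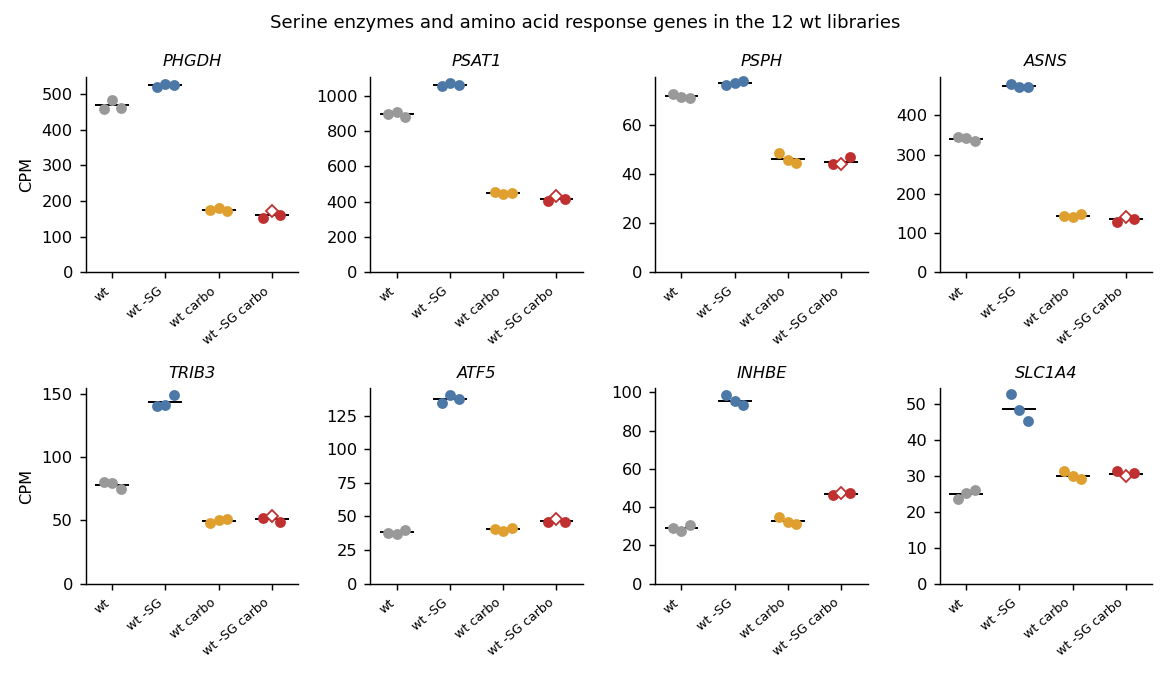
CPM (y axes, from 0) of the serine enzymes, ASNS, TRIB3, ATF5, INHBE and SLC1A4 in the 3 libraries of each wt group, with the mean as a bar and library 11 as an open diamond. Each gene is higher in wt -SG than in wt, while the carboplatin-treated groups lie close to each other except for INHBE.

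Amino acid transporters differed among themselves. SLC1A4, which exchanges serine and alanine, was at 23.4, 25.1 and 26 CPM in wt and 52.8, 48.2 and 45.1 CPM in wt -SG. Under carboplatin it was at 31.3, 29.8 and 29.1 CPM in complete medium and 31.2, 29.9 and 30.7 CPM in deprived medium, which overlapped. The log2 fold change under carboplatin was 0.02 (SE 0.0596, adjusted p = 0.876, edgeR), and the interaction was -0.95 (SE 0.0917, adjusted p = 2.01e-06, edgeR). SLC1A5, a glutamine and neutral amino acid carrier, was at 191, 196 and 183 CPM in wt carbo and 189, 197 and 191 CPM in wt -SG carbo, a log2 fold change of 0.02 (SE 0.0485, adjusted p = 0.876, edgeR) that turned to -0.02 with the length trend removed. Its interaction was -0.30 (SE 0.0519, adjusted p = 3.96e-04, edgeR). Of 15 transporters tested, 0 were called under carboplatin with library 11, and SFXN1 was called higher and SLC3A2 lower without it. In untreated cells 9 were called higher and 4 lower, and the interaction was called below 0 in 8 and above 0 in 2 of them. The cystine carrier SLC7A11 and the glutamine carrier SLC38A2 were among the 8, at -1.30 and -0.56.

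The next lists hold genes that use carbon from serine. Of 22 tested folate and glycine cleavage genes, 0 were called with library 11 (median log2 fold change -0.03), and ALDH1L2 and GLDC were called lower without it, at -0.18 and -0.23. In untreated cells 7 of these genes were called higher and 9 lower, where 24.1% and 25.1% of all genes were. Of 23 purine and pyrimidine synthesis genes, 0 were called with library 11, and 4 higher and 2 lower without it, while in untreated cells 15 were called lower and 0 higher. The interaction called 11 of these 23 with a higher value under carboplatin and 0 with a lower one. RRM2, a ribonucleotide reductase subunit, was at -0.77 without carboplatin and 0.08 with it. None of the 20 transsulfuration, glutathione and NRF2 genes was called with library 11, whereas 7 were higher without it, among them HMOX1 at 0.23 and GPX4 at 0.14, and 2 were lower. None of the 18 sphingolipid and phosphatidylserine genes was called in either fit.

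MAT1A (chromosome 10, 82031576 to 82049414), which makes S-adenosylmethionine from methionine, had the largest fall among called protein-coding genes with a mean of at least 50 counts. It was at 5.96, 5.43 and 6.94 CPM in wt carbo and 2.90, 2.83 and 3.41 CPM in wt -SG carbo. The log2 fold change was -1.0 (SE 0.144, adjusted p = 0.017, edgeR) and -0.95 without library 11. MAT1A was also called lower by deprivation in untreated cells, at -0.73.

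The 10 protein-coding genes with the largest rise, among called genes with a mean of at least 50 counts, were SERPINA1, CHI3L2, C15orf48, TAFA3, TUBB2B, FBXO32, MMP9, TRIM63, CD74 and ITGAX, with log2 fold changes from 0.77 to 1.11. SERPINA1 (chromosome 14, 94843084 to 94857030), a secreted protease inhibitor, was at 7.20, 6.52 and 6.65 CPM in wt carbo and 13, 16 and 14.9 CPM in wt -SG carbo. Its log2 fold change was 1.11 (SE 0.104, adjusted p = 0.00268, edgeR) and 1.04 without library 11, in which it was highest. In untreated cells its counts were 2 to 4 per library in wt and 0 to 1 in wt -SG, too few to be tested. FBXO32 and TRIM63, muscle ubiquitin ligases that mark proteins for degradation, were at 9.19, 9.36 and 9.68 CPM and at 3.49, 3.68 and 3.09 CPM in wt carbo. In wt -SG carbo FBXO32 was at 16.4, 16.6 and 17.2 CPM and TRIM63 at 6.29, 5.79 and 5.90 CPM. Their log2 fold changes were 0.83 (SE 0.0751, adjusted p = 0.00268, edgeR) and 0.81 (SE 0.119, adjusted p = 0.0185, edgeR), and both were 0.83 or 0.84 without library 11.

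MMP9, ITGAX and CD74 act at the cell surface or in the matrix. MMP9 (chromosome 20, 44637547 to 44645200), a matrix protease, was at 9.83, 8.75 and 8.69 CPM in wt carbo and 16.1, 16.2 and 16.2 CPM in wt -SG carbo, a log2 fold change of 0.83 (SE 0.0822, adjusted p = 0.00269, edgeR). ITGAX, an integrin chain, was at 32.5, 30.6 and 30.6 CPM in wt carbo and 51.3, 54.7 and 53.3 CPM in wt -SG carbo, a log2 fold change of 0.77 (SE 0.0573, adjusted p = 0.00200, edgeR). CD74, the invariant chain of antigen presentation, was at 7.68, 7.43 and 7.23 CPM and at 11.7, 14.1 and 12.5 CPM. In each of these genes the lowest deprived library stood above the highest of wt carbo, as the rule for named genes required. The immune markers were near 0 in the same libraries, as given above. PLAT, LRRC15, NOS2, TUBB2A, IL32 and JUN, named after their values were seen, were called higher at 0.74, 0.75, 0.70, 0.69, 0.64 and 0.60. The near-identical tubulin genes TUBB2A and TUBB2B may share reads, so that their separate values are less certain.

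ICAM1, an adhesion molecule, was the called member of the 11 tested NF-kB and cytokine genes. It was at 15.1, 15.8 and 16.3 CPM in wt carbo and 25.7, 24.4 and 27.4 CPM in wt -SG carbo, a log2 fold change of 0.72 (SE 0.0724, adjusted p = 0.00295, edgeR) and 0.76 without library 11. Without library 11, NFKBIA, NFKB2, BIRC3 and CX3CL1 were also called higher, BIRC3 at 0.30 where it was 0.21 (adjusted p = 0.298, edgeR) with all libraries. BIRC3, an inhibitor of apoptosis, was at 198, 200 and 206 CPM in wt carbo and at 247, 203 and 246 CPM in libraries 10, 11 and 12, so that library 11 alone fell within the range of wt carbo. Of 17 tested interferon-stimulated genes 0 were called with library 11, with a median log2 fold change of 0.14. Without it 7 of 19 were called higher and 1, IFIT1, lower, against 6.21% and 4.55% of all genes. The values then ran from -0.89 to 0.55, with IFIT3 at 0.17, IFIT2 at 0.29 and a median of 0.17. KRT19, a keratin, was the epithelial marker called with library 11, and EPCAM, KRT18 and VIM were called higher too without it. KRT19 was at 4.35, 4.71 and 5.25 CPM in wt carbo and 7.81, 7.52 and 7.14 CPM in wt -SG carbo (log2 fold change 0.65, SE 0.111, adjusted p = 0.0350, edgeR). Among 20 autophagy and lysosome genes the protease CTSB was called, at 309, 315 and 311 CPM in wt carbo and 373, 404 and 379 CPM in wt -SG carbo (log2 fold change 0.31, SE 0.0497, adjusted p = 0.0274, edgeR), and SQSTM1 and LAMP2 were also called higher without library 11.

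**Figure D3:**
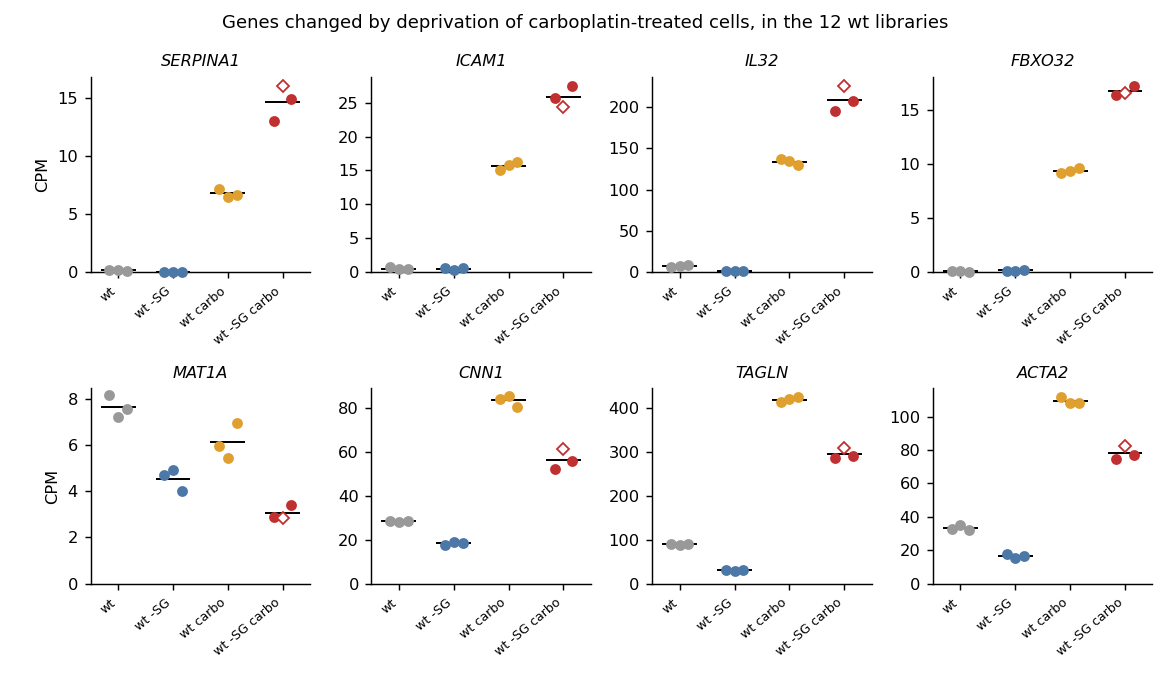
CPM (y axes, from 0) of 4 genes called higher (top row) and 4 called lower (bottom row) in wt -SG carbo than in wt carbo, in the 3 libraries of each wt group, with the mean as a bar and library 11 as an open diamond. The wt carbo and wt -SG carbo libraries do not overlap in any of the 8 genes, which the rule for named genes required of all but IL32.

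TAGLN, ACTA2 and CNN1 were among the genes called lower. TAGLN (chromosome 11, 117070086 to 117078180), an actin-binding protein of smooth muscle, was at 413, 420 and 425 CPM in wt carbo and 286, 309 and 291 CPM in wt -SG carbo. The log2 fold change of TAGLN was -0.51 (SE 0.0494, adjusted p = 0.00269, edgeR) and -0.54 (SE 0.0225) without library 11. ACTA2, smooth muscle actin, was at 112, 108 and 108 CPM in wt carbo and 74.8, 82.4 and 77.2 CPM in wt -SG carbo, a log2 fold change of -0.48 (SE 0.0544, adjusted p = 0.00558, edgeR). CNN1, the actomyosin regulator calponin, was at 84.3, 85.6 and 80.7 CPM and at 52.3, 61.2 and 56.0 CPM, a log2 fold change of -0.56 (SE 0.0651, adjusted p = 0.00609, edgeR). In all 3 genes library 11 was the deprived library nearest to wt carbo. The groups did not overlap, as the rule for named genes required. These genes were also lower with deprivation in untreated cells, where the log2 fold change was -1.54 for TAGLN, -0.99 for ACTA2 and -0.62 for CNN1. The 250 bases before the start of ACTA2 and CNN1 held no CArG box, the site of serum response factor, which occurred in 1.44% of all genes with an entry.

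The other protein-coding genes named by the same rule were SYNJ2, a phosphoinositide phosphatase, at -0.67 (SE 0.0796, adjusted p = 0.00688, edgeR), ADAM11 at -0.42, ZNF561 at -0.40, TRAF5, an adaptor of TNF receptors, at -0.38, ACTN3, an actin crosslinker, at -0.37 and GRIP2 at -0.35. ANXA6 and ELOVL6, a fatty acid elongase, completed the 12 protein-coding genes called lower, at -0.34 and -0.32. ZNF561, ACTN3 and GRIP2 had been higher with deprivation in untreated cells, at 0.21, 0.37 and 0.63. GRIP2 was not called with total counts in place of TMM or with the length trend removed. GRIP2, KRT19 and ELOVL6 were not called with DESeq2, and in a fit over the 36 libraries these genes and TRIM63, MAT1A, SYNJ2, ZNF561, ACTN3 and LRRC15 were not called. Without library 6 none of them was called between wt -SG carbo and wt carbo.

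Glycolysis genes differed between the settings. Of 20 tested, 18 were called lower and 1 higher with deprivation in untreated cells, and the median was -0.38 on the log2 scale. Under carboplatin 0 were called with library 11, at a median of 0.17, although PKM and LDHA were called higher with the length trend removed and with DESeq2, and 13 were called higher and 1 lower without it, at a median of 0.12. LDHA, which converts pyruvate to lactate, was at 1306, 1316 and 1275 CPM in wt and 760, 753 and 740 CPM in wt -SG, but at 751, 780 and 768 CPM in wt carbo and 885, 985 and 897 CPM in wt -SG carbo. The log2 fold change of LDHA was -0.78 without carboplatin and 0.27 (SE 0.0547, adjusted p = 0.0739, edgeR) with it, or 0.22 (adjusted p = 3.42e-21) without library 11. The interaction was 1.06 (SE 0.0561, adjusted p = 3.54e-09, edgeR). PKM, the pyruvate kinase, was at 2094, 2115 and 2081 CPM in wt carbo and 2443, 2463 and 2449 CPM in wt -SG carbo, without overlap (log2 fold change 0.23, SE 0.0437, adjusted p = 0.0589, edgeR, and 0.22 with adjusted p = 5.11e-25 without library 11). The interaction called 17 of the 20 genes with a higher value under carboplatin, among them PGK1 at 0.96 and the lactate exporter SLC16A3 at 1.33.

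Cholesterol synthesis and DNA replication genes fell with deprivation in untreated cells and were not called under carboplatin with library 11. Of 24 cholesterol genes 22 were called lower and 1 higher in untreated cells, and the median was -0.43 on the log2 scale. Under carboplatin the median was 0.00 without library 11, where SQLE was called higher, and the interaction was called above 0 in 19 genes and below 0 in SREBF2. HMGCS1, an early enzyme of the pathway, was at 296, 293 and 288 CPM in wt and 183, 182 and 184 CPM in wt -SG, but at 291, 288 and 282 CPM in wt carbo and 290, 272 and 301 CPM in wt -SG carbo. Of 30 replication and S phase genes 28 were called lower in untreated cells, at a median of -0.39. Under carboplatin the median was -0.02, and without library 11 CCNE1 was higher and MCM7, POLD1, RFC4 and CHAF1B were lower. The replication licensing gene CDC6 was at 57.6, 53.6 and 55.6 CPM in wt carbo and 58.7, 55.3 and 54.8 CPM in wt -SG carbo, and its interaction was 0.57 (SE 0.0627, adjusted p = 6.78e-06, edgeR).

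Of 28 tested mitotic genes, 12 were called lower and 0 higher in deprived cells under carboplatin when library 11 was left out. The median log2 fold change was -0.15, in a fit that called 4.55% of all genes lower and 6.21% higher. That fit called 26% of all list genes, which are more abundant, in either direction. With library 11 the median of the mitotic genes was -0.14 and 0 were called. TOP2A, the topoisomerase that untangles chromosomes, was at 126, 127 and 133 CPM in wt carbo and 109, 82.6 and 112 CPM in libraries 10, 11 and 12 (log2 fold change -0.35, SE 0.104, adjusted p = 0.214, edgeR, and -0.22 with adjusted p = 7.18e-08 without library 11). ASPM, a spindle pole protein, was at 46.2, 42.9 and 44.7 CPM in wt carbo and 35.6, 22.4 and 35.7 CPM in those libraries (log2 fold change -0.52, SE 0.163, adjusted p = 0.260, edgeR, and -0.32 with adjusted p = 1.49e-06 without library 11). Library 11 was the lowest in both genes. Without carboplatin 26 of the 28 genes were called lower, at a median of -0.31, where 25.1% of all genes were. In bulk RNA, fewer dividing cells and less of these mRNAs per cell cannot be told apart. Of 27 tested p53 targets 0 were called under carboplatin with library 11, and 3 higher and 2 lower without it. CDKN1A, the cell cycle inhibitor that p53 induces, was at 0.00 and -0.04 in these fits. Of 26 Fanconi anemia and homologous recombination genes, RAD51D was called higher and BRCA2 and FANCI lower without library 11, and 0 were called with it.

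**Figure D4:**
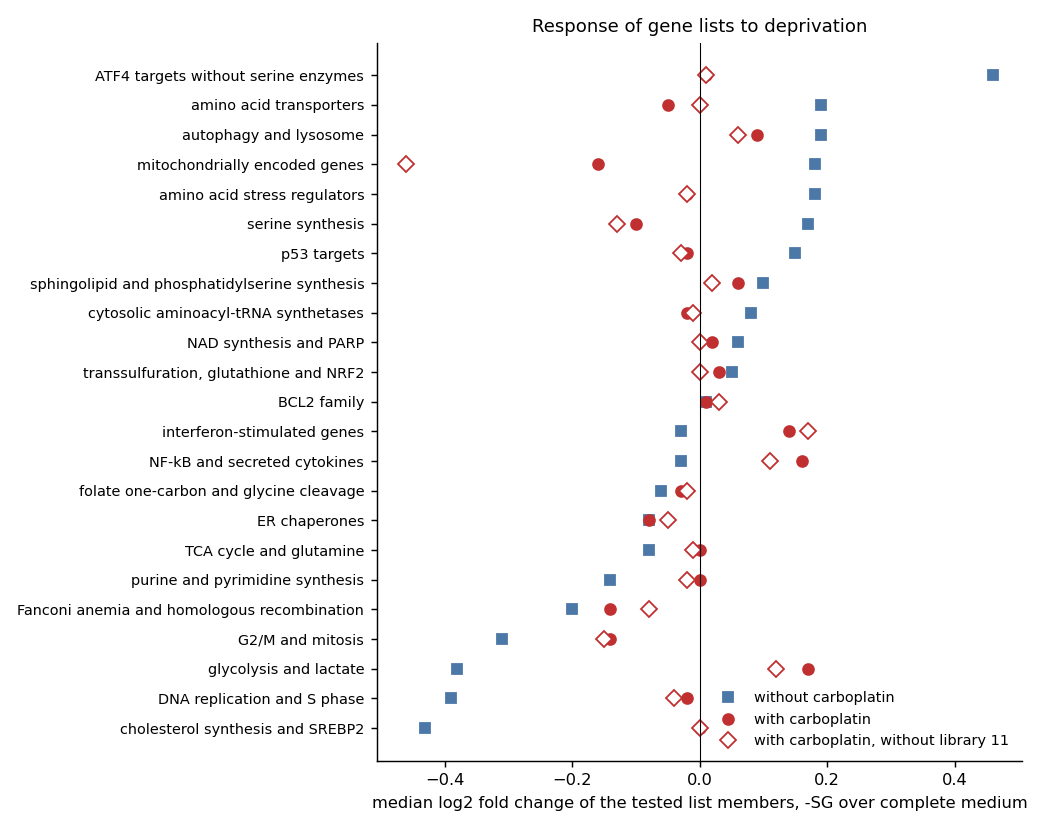
Median log2 fold change of the tested members of 23 gene lists, deprived over complete medium, in untreated cells (squares) and carboplatin-treated cells (filled circles, and open diamonds without library 11). In untreated cells the medians run from -0.43 for cholesterol synthesis to 0.46 for ATF4 targets, and under carboplatin both lists lie at 0.01 or below.

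Over the 23 lists apart from cell type markers, 439 genes were tested, and 3 were called with library 11 (0.683%), which is near the 0.720% of all genes. Without it 114 were called (26%, against 10.8% of all genes), and the lists hold more abundant genes, with a median of the mean count of 1188 against 358 over all genes tested. The 13 mitochondrially encoded genes had a median of -0.16 with 0 called, and of -0.46 with 8 called lower without library 11, whose mitochondrial share of counts was given above. BCL2, an inhibitor of apoptosis, was named after its values were seen, at 8.28, 7.12 and 6.59 CPM in wt carbo and 4.91, 3.76 and 4.85 CPM in wt -SG carbo. Its log2 fold change with all libraries was -0.71 (SE 0.142, adjusted p = 0.0714, edgeR), and it was called with the length trend removed (-0.62, adjusted p = 0.0414) and without library 11 (-0.59, adjusted p = 9.24e-04). Of the 13 tested BCL2 family genes, 0 were called in the main comparison. With the length trend removed BID was also called, in the higher direction. Without library 11 BAK1 and BID were called higher and BAX lower.

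The responses to deprivation with and without carboplatin were then set side by side across genes. Of the 35 genes that rose by a log2 fold change of at least 1 in untreated cells, with a mean of at least 50 counts over the 12 libraries, 2 were called higher and 0 lower under carboplatin. Their median log2 fold change was 1.20 without carboplatin and -0.03 with it. Of the 51 genes that fell by at least 1, 2 were called lower and 5 higher under carboplatin, and the medians were -1.19 and 0.11. Over all genes tested there, 0.623% were called higher and 0.0969% lower. Without library 11, 4 of the 35 were called higher and 1 lower, and 7 of the 51 were called lower and 9 higher. That fit called 6.21% of all genes higher and 4.55% lower. The mean count includes the carboplatin libraries, so genes nearly absent from wt -SG could pass through them, which favours higher values under carboplatin. CXCR4, for example, had 1 to 2 counts per wt -SG library and 119 to 198 per carboplatin-treated library. The comparisons with and without carboplatin share no library. Over the 6478 genes called in untreated cells with that mean count, the slope of the response under carboplatin on that without it was -0.063 with library 11 and -0.034 without it, and Pearson's r was -0.16 and -0.10. This is a description across genes called in untreated cells, which are not independent and share the depth of their libraries.

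**Figure D5:**
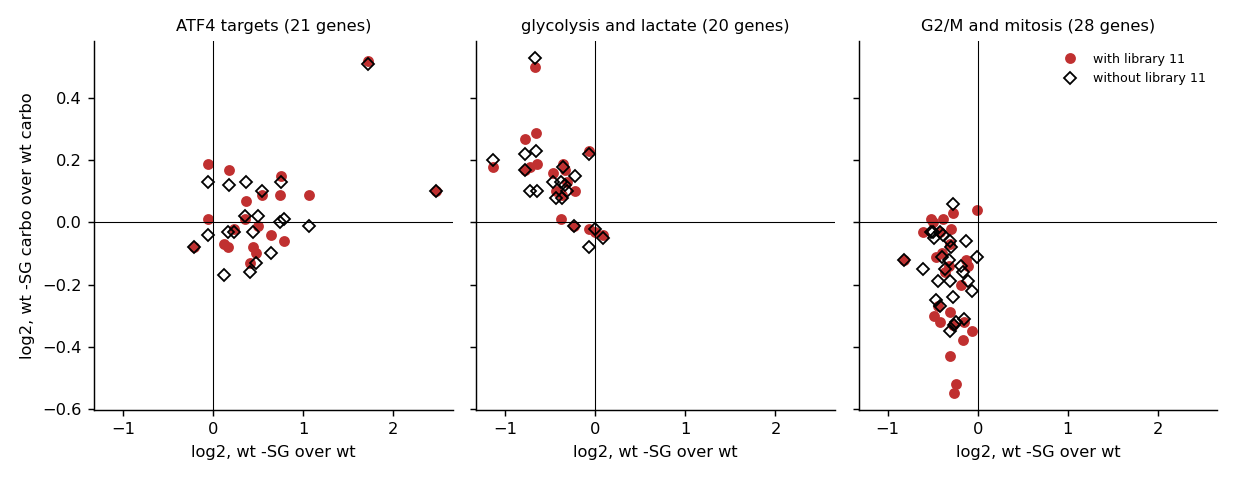
Log2 fold change of deprivation under carboplatin (y axis) against that in untreated cells (x axis) for the tested ATF4 targets, glycolysis genes and G2/M genes, with library 11 (circles) and without it (diamonds). ATF4 targets spread to the right along the x axis near 0 on the y axis, apart from INHBE at 1.72 and 0.52, while most glycolysis genes lie above 0 and most G2/M genes below 0 on the y axis.

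The 5 called protein-coding genes with the highest values were CXCR4 at 3.38, SERPINA1 at 3.21, IL32 at 2.78, TAF11L12 at 2.73 and SFN at 2.40. IL32, a secreted cytokine, was at 6.74, 7.05 and 8.67 CPM in wt and 1.71, 1.83 and 1.53 CPM in wt -SG, but at 137, 135 and 130 CPM in wt carbo and 195, 225 and 207 CPM in wt -SG carbo (interaction SE 0.151, adjusted p = 4.05e-09, edgeR). CXCR4, a chemokine receptor, had 11 to 13 counts per library in wt and 1 to 2 in wt -SG, and SERPINA1 and TAF11L12 had at most 1 in wt -SG. Their fitted values depend on the prior count and are no bound. TAF11L12 belongs to a family of near-identical genes and is uncertain. SFN, the 14-3-3 sigma protein, went from 2.52, 2.51 and 2.80 CPM to 0.635, 0.627 and 0.700 CPM in untreated cells and from 23.9, 24.8 and 22.3 CPM to 28, 34.9 and 30.7 CPM under carboplatin.

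Ranked among the same genes, the 5 lowest interactions were those of FUT1 at -2.98, NIBAN1 at -2.37, EPAS1 at -2.21, PRSS35 at -1.75 and FGF21 at -1.74. NIBAN1, a stress-induced regulator of translation, was at 9.65, 12.1 and 8.98 CPM in wt and 56.0, 59.0 and 55.8 CPM in wt -SG, but at 4.94, 5.74 and 5.95 CPM in wt carbo and 5.53, 5.98 and 6.29 CPM in wt -SG carbo (interaction SE 0.159, adjusted p = 4.19e-08, edgeR). FUT1, a fucosyltransferase, was at 3.12, 3.93 and 3.84 CPM in wt and 16.8, 16.9 and 17.7 CPM in wt -SG, and at or below 1.05 CPM in the carboplatin-treated libraries. EPAS1, the hypoxia-inducible factor HIF-2alpha, was at 0.877, 0.819 and 0.986 CPM in wt and 3.61, 4.13 and 3.69 CPM in wt -SG, and at 17.4, 19 and 17.5 CPM in wt carbo and 19.4, 14.1 and 16 CPM in wt -SG carbo. FGF21, a secreted hormone among the ATF4 targets, had 4 to 5 counts per wt carbo library and 7 to 9 per wt -SG carbo library and was not tested in that comparison. All 10 genes kept their call and direction without library 11, which the rule for named genes required of them.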

How the data were processed

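Counts on genes were analysed for the wt libraries of A2780 cells, grouped by the labels. STAR alignment against GRCh37.p13 and HTSeq counting on GENCODE 19 were run by the authors, and the deposited values are raw counts per gene. The strand setting and the treatment of reads with several alignments are not given in the sources used here. The methods describe libraries from purified mRNA. The row of reads on no annotated feature held 7.21% to 9.31% of that row and the counts on genes together in the wt libraries. All 3 rows that name no gene were left out. Symbols and positions came from GENCODE 44 mapped to GRCh37.

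Counts were fitted with edgeR 4.0.16 in R 4.3.3 (TMM, filterByExpr, robust estimateDisp, glmQLFit, glmQLFTest) on the libraries of the comparison, and on the 12 wt libraries for the interaction. p-values were adjusted by Benjamini-Hochberg over all genes tested, and genes under 0.05 were called. The standard error is the absolute log2 fold change divided by the square root of F. DESeq2 1.42.0 was an alternative. The other alternatives were the normalization, the filter, a fold limit, protein-coding genes, removal of the length trend, shared fits and each library left out. Leaving out library 11 with a wt carbo library, and DESeq2 without library 11, were added after seeing the data. The tests were tried on simulated data. Tables and plots used Python 3.11.15, pandas 2.3.3 and matplotlib 3.10.9.

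The comparison, the 27 gene lists and the rule for named genes were chosen with earlier results of these data known. The rule names the serine enzymes, SLC1A4, SLC1A5 and ATF4. It adds up to 4 called members of each list whose mean reached 50 counts and whose groups did not overlap, and up to 10 called protein-coding genes per direction that are also called without library 11. For the interaction it adds up to 5 per direction, which again had to be called without library 11 too. All other genes with values were named after these were seen. Of 501 list entries 500 were matched, PECAM1 being the exception. Counts of CHI3L2, TUBB2B, MMP9, TAGLN, ACTA2, GRIP2, SLC1A5, ATF5, IFIT3, TUBB2A and SLC16A3 are less certain, since a gene with at least 10% of their count overlaps them. Promoters are RefSeq entries, GRCh38.p14. A result of the lists without library 11 is not reported here.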

Additional observations from a re-analysis of the deposited data

Results flagged for a closer look

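The interaction called 4219 genes as responding differently to deprivation with and without carboplatin. Among the genes named, the response under carboplatin was the lower one, with the log2 difference given, in PHGDH (-0.29), PSAT1 (-0.35), SLC1A4 (-0.95), SLC1A5 (-0.30), FUT1 (-2.98), NIBAN1 (-2.37), EPAS1 (-2.21), PRSS35 (-1.75), FGF21 (-1.74), ATF5 (-1.64), TRIB3 (-0.83), NUPR1 (-1.24), ASNS (-0.58), INHBE (-1.20), GDF15 (-0.65), SLC7A11 (-1.30) and SLC38A2 (-0.56). It was the higher one in CXCR4 (3.38), SERPINA1 (3.21), IL32 (2.78), TAF11L12 (2.73), SFN (2.40), HMGCS1 (0.68), SQLE (0.52), LDHA (1.06), PGK1 (0.96), SLC16A3 (1.33), CDC6 (0.57) and ATF3 (0.66). SERPINA1 and TAF11L12 were not tested between wt -SG and wt. Their counts were 4, 4 and 2 (SERPINA1) and 7, 2 and 5 (TAF11L12) in wt. In wt -SG they were 1, 1 and 0 (SERPINA1) and 0, 1 and 1 (TAF11L12). The differences of both thus rest on few untreated counts, and the carboplatin-treated groups of TAF11L12 overlapped. Each of the listed differences had an adjusted p-value under 0.05 by edgeR with and without library 11. For CXCR4, SERPINA1, IL32, TAF11L12, SFN, FUT1, NIBAN1, EPAS1, PRSS35 and FGF21 the rule for named genes required this. The difference of PHGDH was not called with the length trend removed. Those of PHGDH and GDF15 were not called in a fit over the 36 libraries. Groups of 3 libraries are too small for a test of single outlying libraries.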

How the results depend on the processing

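The genes called numbered 104 (90 higher, 14 lower) and moved with the choices below. They numbered 545 without a filter (265 higher, 280 lower), 214 with the length trend removed (167 and 47), 513 in a fit over the 12 wt libraries (323 and 190) and 3 at a log2 fold change of 1 or more in size (1 and 2). DESeq2 called 26 lower genes. With each library left out in turn, they ranged from 0 to 1583 (0 to 914 higher, 0 to 669 lower), the highest without library 11 and the lowest without library 6. With library 11 and a wt carbo library left out they numbered 1382, 1348 and 1061 (779, 787 and 644 higher, 603, 561 and 417 lower), and 694 with DESeq2 without library 11 (447 and 247). The interaction count was 1535 in a fit over the 36 libraries, 371 at a difference of 1 or more in size and 3455 to 5306 with each library left out. The cause was not tested. The value of SLC1A5 changed sign with the length trend removed (-0.02) and without library 6 (-4.0e-03, in a range up to 0.04 with each library left out), and the interaction of ATF4 with the length trend removed (-0.10) and without library 11 (-0.03, in a range up to 0.06), none of them called. The labels give no replicate numbers within a condition. No paired analysis was possible because the libraries carry no such numbers.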

Other observations

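Other gene groups showed few calls under carboplatin. Of 20 cytosolic aminoacyl-tRNA synthetases, which ATF4 also raises, 0 were called with library 11, and without it HARS1 and WARS1 were higher and AARS1, IARS1, LARS1 and MARS1 lower. In untreated cells 11 of them were called higher and 7 lower, where 24.1% and 25.1% of all genes were. Of 27 citrate cycle and glutamine genes 0 were called with library 11, and without it CS was higher and IDH2 and SUCLG2 were lower, with 2 higher and 14 lower in untreated cells. Of 15 ER chaperones 0 were called with library 11, and PDIA4, PDIA6 and XBP1 were lower without it. Of 15 NAD synthesis and PARP genes 0 were called with library 11, and NMNAT2 was higher and PARP1 lower without it.

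Some called genes, chosen here after their values were seen, moved against their direction in untreated cells. NOS2, the inducible nitric oxide synthase, was at 27.7, 27.5 and 24.2 CPM in wt carbo and 45.2, 39.6 and 44.1 CPM in wt -SG carbo (log2 fold change 0.70, SE 0.0772, adjusted p = 0.00477, edgeR). Its log2 fold change in untreated cells was -0.72, at 0.827 to 2.62 CPM in those libraries. TUBB2A was at 93.8, 97.8 and 85.2 CPM in wt carbo and 142, 159 and 145 CPM in wt -SG carbo, against a log2 fold change of -0.65 in untreated cells.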
